A study of Mus musculus with 24 samples.

Results

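Chromatin accessibility was examined at 31 genes, listed as DNA repair genes modifying repeat instability, in striatal neuronal nuclei. The mice were with and without an expanded CAG repeat in Htt, the huntingtin gene. The list spans DNA mismatch repair, DNA synthesis and excision repair, and also holds Msh4 and Msh5, which act in meiosis. A region of accessible chromatin (a peak) was taken where the gene symbol in the deposited table, which is that of the gene with the nearest annotated start, was one of the 31, and Msh3 itself was left out. The rule found 116 of 147020 peaks, under the names of 28 of the genes. Fen1, Pms1 and Pole had no peak under their own name. All 116 peaks passed the filter on low counts, and each named gene had between 1 and 14 of them with a median of 3. The 31 genes were grouped as MutS homologues (Msh4, Msh5 and Msh6), MutL homologues (Mlh3, Pms1 and Pms2), nucleases (Exo1, Fan1 and Fen1), ligases (Lig1 and Lig3), replicative polymerase subunits (Pold1, Pold2, Pold3, Pold4 and Pole), the sliding clamp and its loader (Pcna and Rfc1 to Rfc5), RPA (Rpa1, Rpa2 and Rpa3), base excision repair (Polb, Ogg1 and Neil1), nucleotide excision repair (Xpa and Ercc1) and ribonucleotide reductase (Rrm2b).

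The measurement was ATAC-seq, in which the Tn5 transposase inserts sequencing adapters into DNA that is not covered by nucleosomes, so that counts in a peak follow how open the region was. The nuclei came from frozen striatum of C57BL/6 mice aged 12 months and were sorted for NeuN, a protein of most neuronal nuclei. Q140_Msh3KO animals were heterozygous for a knock-in of expanded Htt (Q140) and carried no functional copy of Msh3 (Msh3 -/-). Q140 animals were heterozygous for the same knock-in with Msh3 intact, Msh3KO animals were Msh3 -/- with wild-type Htt, and WT animals carried neither allele. Each group had 6 libraries, 3 from females and 3 from males, and a library is named below by sex and number, as in Q140 F2. The crosses ask what the expanded allele does to chromatin when Msh3 is present and when it is missing.

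Mismatch repair proteins that bind small loops in DNA are also known to let long CAG repeats grow in neurons that no longer divide. MutS complexes bind the loop, MutL complexes with an endonuclease subunit nick the DNA, and a polymerase with its sliding clamp and a ligase refill and seal the gap, while Fan1 is known to counter the growth. In people with Huntington's disease, variants near the human genes for FAN1, PMS1, PMS2, LIG1 and RRM2B are associated with the age at which symptoms begin.

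The promoters of a few of these genes are shown because the start of every member lay in or next to open chromatin. Promoter sequences are from RefSeq (GRCm38.p6) and span 250 bases before to 50 after the annotated start, 5′ to 3′ on the strand of the gene, with motif matches in capitals. The 31 windows of the 26 members with an entry were searched on both strands for NRF1 (GCGCATGCG), ETS (CCGGAAG), Sp1 (GGGGCGGGG), CCAAT, E2F (TTTCCCGC), CRE (TGACGTCA) and YY1 (AAGATGGC), and matches of different motifs overlapped in 0 of them. Rrm2b, Polb, Pole, Rfc2 and Exo1 had no entry. Xpa is at chr4:46196262-46196561 (minus strand) with 1 of the 2 NRF1 matches among the members, and 2 of the called peaks described below are named after it. Ogg1 is at chr6:113326726-113327025 (plus strand), with one of the most accessible starts and ETS, Sp1 and CCAAT matches. Msh6 (chr17:87974800-87975099, plus), Pold1 (chr7:44548766-44549065, minus) and Rfc3 (chr5:151651159-151651458, minus) hold the E2F letters. Pold4 (chr19:4231643-4231942, plus) had a called peak just before its start. Msh4 (chr3:153904842-153905141, minus) had the least accessible start peak and no match. That peak (chr3:153905069-153906180) lies before the annotated start and overlaps only part of the window.
Xpa: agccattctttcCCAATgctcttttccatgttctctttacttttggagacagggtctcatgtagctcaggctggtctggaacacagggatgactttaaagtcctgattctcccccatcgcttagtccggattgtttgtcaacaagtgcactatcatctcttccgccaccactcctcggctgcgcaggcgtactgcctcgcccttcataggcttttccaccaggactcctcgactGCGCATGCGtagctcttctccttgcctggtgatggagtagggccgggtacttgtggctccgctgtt
Ogg1: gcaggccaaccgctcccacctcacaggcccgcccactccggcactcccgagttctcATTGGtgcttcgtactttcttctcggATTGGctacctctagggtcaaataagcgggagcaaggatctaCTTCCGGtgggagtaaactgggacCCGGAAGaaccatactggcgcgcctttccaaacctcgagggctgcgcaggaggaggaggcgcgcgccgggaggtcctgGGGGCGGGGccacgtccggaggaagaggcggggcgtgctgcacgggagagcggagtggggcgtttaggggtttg
Msh6: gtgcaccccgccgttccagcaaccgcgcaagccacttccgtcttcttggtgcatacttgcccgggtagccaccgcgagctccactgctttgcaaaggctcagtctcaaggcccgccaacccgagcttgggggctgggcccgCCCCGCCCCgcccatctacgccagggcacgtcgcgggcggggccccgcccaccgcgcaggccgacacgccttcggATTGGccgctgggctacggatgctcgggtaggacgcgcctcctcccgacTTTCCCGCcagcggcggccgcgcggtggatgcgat
Pold1: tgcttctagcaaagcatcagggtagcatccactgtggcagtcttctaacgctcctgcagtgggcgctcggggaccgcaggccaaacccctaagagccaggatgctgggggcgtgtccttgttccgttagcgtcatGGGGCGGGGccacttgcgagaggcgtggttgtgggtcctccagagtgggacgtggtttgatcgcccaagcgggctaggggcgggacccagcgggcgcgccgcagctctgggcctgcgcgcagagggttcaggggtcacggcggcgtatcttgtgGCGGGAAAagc
Rfc3: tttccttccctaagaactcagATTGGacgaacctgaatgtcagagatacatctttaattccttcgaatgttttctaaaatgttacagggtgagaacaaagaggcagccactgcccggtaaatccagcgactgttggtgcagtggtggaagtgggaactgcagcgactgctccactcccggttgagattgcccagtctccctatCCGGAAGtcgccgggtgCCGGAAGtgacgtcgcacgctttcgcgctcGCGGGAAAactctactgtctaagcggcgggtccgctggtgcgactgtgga
Pold4: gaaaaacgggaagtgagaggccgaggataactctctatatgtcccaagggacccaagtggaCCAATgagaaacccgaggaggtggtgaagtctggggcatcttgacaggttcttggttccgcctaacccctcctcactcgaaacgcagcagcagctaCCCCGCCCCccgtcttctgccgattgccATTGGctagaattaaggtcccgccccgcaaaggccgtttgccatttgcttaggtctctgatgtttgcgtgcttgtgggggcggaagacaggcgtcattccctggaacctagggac
Msh4: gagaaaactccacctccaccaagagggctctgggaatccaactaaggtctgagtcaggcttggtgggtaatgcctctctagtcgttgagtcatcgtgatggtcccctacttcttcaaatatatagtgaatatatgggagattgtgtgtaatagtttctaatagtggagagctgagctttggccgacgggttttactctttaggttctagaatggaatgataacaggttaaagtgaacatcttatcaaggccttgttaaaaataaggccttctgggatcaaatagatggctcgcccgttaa

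The E2F letters were found in 5 of the 31 windows (16.1%; Msh5, Msh6, Pold1, Pold3 and Rfc3), against 1.07% of all 32851 RefSeq promoter windows of the same length. E2F factors are known for driving genes of DNA synthesis in dividing cells. ETS letters were found in 32.3% of the member windows, against 8.86% of all windows. Sp1 letters were found in 29.0%, against 11.4%, CCAAT in 51.6%, against 37.4%, NRF1 in 6.45%, against 1.75% of all windows, and YY1 in 6.45%, against 2.75%. CRE letters were in 0 member windows and in 1.79% of all windows. No share was computed for windows of like GC and CpG content or for windows at peaks. These differences therefore do not set the members apart from other open promoters. The median GC content was 58.3% in the member windows, against 52.7% in all windows. The ratio of observed to expected CpG was 0.81, against 0.38, and 29 of the 31 windows overlapped a peak.

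Total counts in peaks ran from 4372251 to 11736557 per library, with group medians of 8.10 M in Q140_Msh3KO, 8.42 M in Q140, 8.91 M in Msh3KO and 7.82 M in WT (M, mega). The knockout was looked at first, at Msh3, where 24 peaks inside the gene summed to 89.2 to 113 CPM (counts scaled to a library of 1 M) in Q140_Msh3KO, 57.7 to 74.2 in Q140, 86.3 to 119 in Msh3KO and 49.5 to 70.1 in WT. All 12 knockout libraries lay above all 12 libraries with Msh3 intact, and which part of the gene is deleted is not given in the sources used here. The library Q140 F2, labelled female, had 1.466% of its counts on X, where the other females had 1.724 to 1.939% and the males 1.485 to 1.589%. Q140_Msh3KO M1 held 12.7% of its counts in its 10 highest peaks, where the other libraries of its group held 3.33 to 4.74%. No member peak lay on the chromosome of Msh3, and the member peak nearest to Htt was 30.5 Mb away from it.

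Every member had an open region at or next to its start. A peak covering or next to the annotated start was found for all 31 genes, 24 of them under the member's own name and 7 under that of a neighbour. The neighbours were Tmem258 for Fen1, Zswim9 for Lig1, Ormdl1 for Pms1, Aimp2 for Pms2, Smyd4 for Rpa1, Umad1 for Rpa3 and Pxmp2 for Pole. Of these 31 start peaks, 6 (19.4%) also covered a protein-coding start of another gene. So did 752 of the 6705 promoter-class peaks that cover any protein-coding start (11.2%). In such a peak the accessibility of the 2 genes cannot be told apart. Only starts with a RefSeq promoter entry were searched, so further shared starts may be missed. Pole has no such entry, and its peak is named after Pxmp2.

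Levels are given as CPM per kb of peak where genes are compared. The start peaks ran from 6.61 to 46.9 CPM per kb with a median of 21.4, and the other 92 peaks of the members had a median of 8.15. All promoter-class peaks of the table had a median of 16.2 CPM per kb, and all others 8.48. The most accessible starts were those of Rrm2b, the p53-inducible subunit of ribonucleotide reductase, at 46.9 CPM per kb, of Pcna, the sliding clamp, at 44.7, and of Ercc1, a subunit of a nuclease that cuts beside damaged bases, at 41.6. Ogg1, the glycosylase that removes 8-oxoguanine, had 40.8 CPM per kb, Rpa3 40.4, Pold1, the catalytic subunit of polymerase delta, 39.1, and Pold2, an accessory subunit of the same enzyme, 38.0. At the low end stood Msh4, which acts in meiotic crossing over, at 6.61 CPM per kb, and Pole, the catalytic subunit of polymerase epsilon, at 10.6. Fan1, the nuclease named above, had 15.8 CPM per kb, and Lig1, the ligase that seals nicks in replicating DNA, 17.1. Among all member peaks the highest level per kb was not at a start, but in an intergenic peak of 320 bases named after Rfc3, a clamp loader subunit, and 83.4 kb from its start, at 51.3 CPM per kb.

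**Figure D1:**
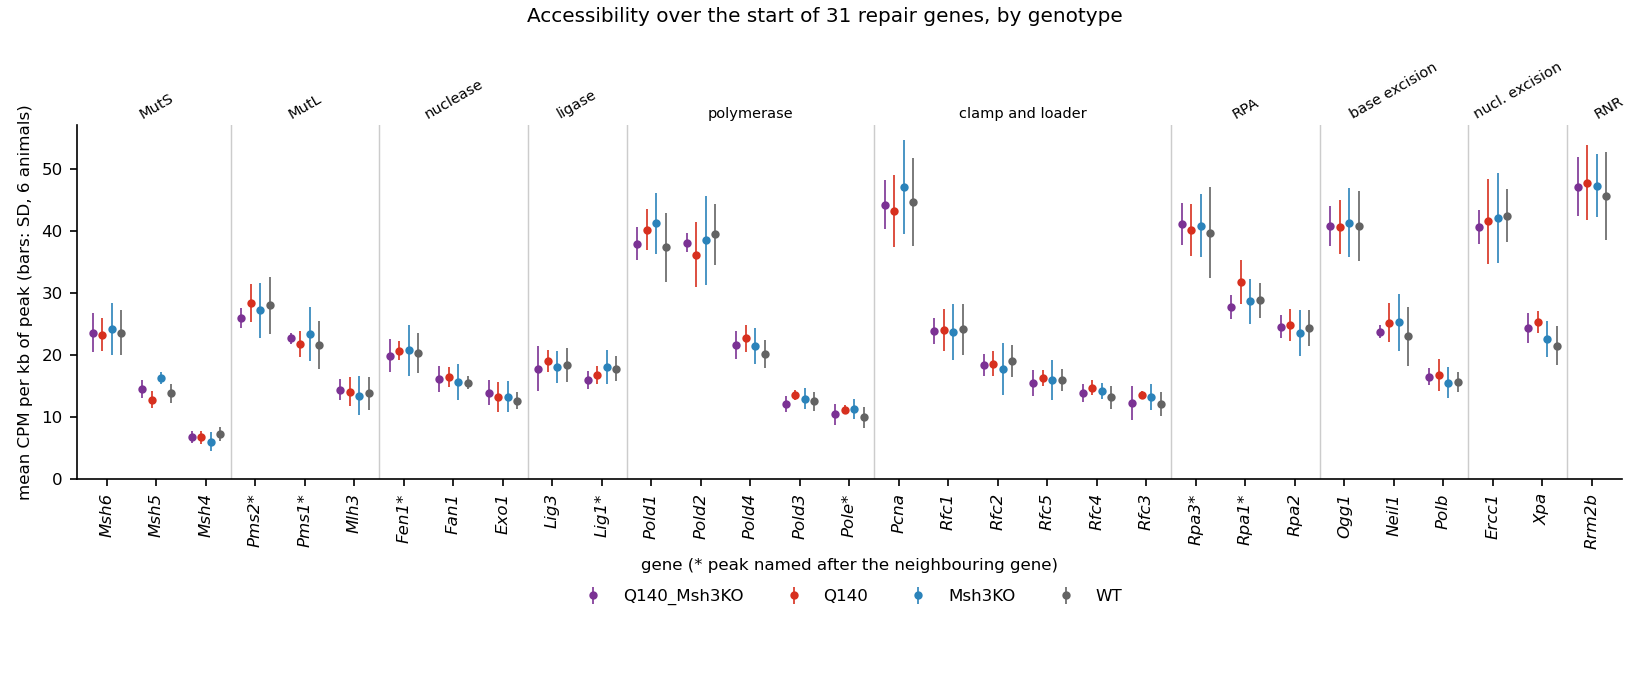
Mean accessibility of the peak at the start of each of the 31 genes, in CPM per kb of peak, with bars for the SD over 6 animals in Q140_Msh3KO, Q140, Msh3KO and WT, grouped by the role of the gene. The starts differ between genes, with Msh4 lowest at 6.61 and Rrm2b highest at 46.9 CPM per kb over all libraries, while the 4 genotypes of each gene lie close together.

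The accessibility of the starts differed little between genotypes. In Q140 against WT the 31 log2 fold changes ran from -0.13 at Pold2 to 0.23 at Xpa with a median SE of 0.12, and all 31 were within 0.25. Extended by 2 SE, they stayed between -0.38 and 0.45. None passed an adjusted p of 0.05 in edgeR's quasi-likelihood test in any of the 6 comparisons. Few promoter-class peaks of the whole table passed either, 3.33% in Q140 against WT and fewer in each other comparison. The lack of calls at 31 starts therefore does not set the members apart. In Q140 against WT, 1 of 31 had an unadjusted p under 0.05, against 21.3% of all tested peaks of any class. The share among promoter-class peaks alone was not computed, so this count does not set the starts apart either. The 1 start was that of Xpa, which helps to verify DNA damage before excision. Its start peak (chr4:46195726-46196745) held 22.4 to 27.4 CPM in Q140 (median 26.3) and 18.6 to 26.7 in WT (median 21.1), overlapping ranges, with a log2 fold change of 0.23 ± 0.11 (SE, adjusted p = 0.217).

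The 3 peaks of highest CPM under the members' own names are starts. Rrm2b (chr15:37960391-37961723) held 52.5 to 70.0 CPM in Q140_Msh3KO (median 64.9), 52.5 to 72.1 in Q140 (median 64.0), 53.4 to 69.7 in Msh3KO (median 65.4) and 46.9 to 74.7 in WT (median 60.7). All 4 ranges overlapped, and the log2 fold change in Q140 against WT was 0.07 ± 0.11 (SE, adjusted p = 0.824). Ogg1 held 44.4 to 55.7 CPM in Q140_Msh3KO (median 50.03), 42.5 to 56.3 in Q140 (median 51.2), 40.2 to 58.3 in Msh3KO (median 53.6) and 38.9 to 59.6 in WT (median 52.7). Ercc1 held 40.6 to 49.6 CPM in Q140_Msh3KO (median 45.6), 33.9 to 56.8 in Q140 (median 46.9), 35.5 to 57.2 in Msh3KO (median 48.5) and 38.9 to 53.3 in WT (median 48.2). For neither gene did the groups separate, with fold changes in Q140 against WT of -0.01 ± 0.11 and -0.04 ± 0.11. Summed over the 31 start peaks, accessibility was 712 ± 39.9 CPM in Q140_Msh3KO, 726 ± 57.5 in Q140, 726 ± 95.5 in Msh3KO and 709 ± 78.3 in WT (SD, n = 6 each).

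The start peaks were also wider than the rest, with a median width of 981 bases, against 369 for the other 92 peaks. Their coefficient of variation over all 24 libraries had a median of 12.9%, against 23.9% for the others. It takes in counting error, which is larger in peaks with fewer counts. Whether the start peaks were steadier beyond that was not tested. The largest start-peak values in the other comparisons stayed short of the threshold. In Msh3KO against WT, Msh4 had -0.29 ± 0.15 and Msh5, its partner in meiosis, 0.25 ± 0.11 on the log2 scale, and the smallest adjusted p over the 31 was 1.0. In Q140_Msh3KO against Q140 the range was -0.19 at Rpa1 to 0.19 at Msh5, and the smallest adjusted p was 0.611. Against Msh3KO, Q140_Msh3KO had -0.18 at Lig1 to 0.21 at Msh4, and against WT -0.15 at Lig1 to 0.18 at Xpa.

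Away from the starts, the expanded allele was accompanied by changes at a few peaks. In Q140 against WT, 8 of the 116 member peaks (6.90%) passed the threshold, 3 of them higher and 5 lower. This was below the 10.3% of all 146155 tested peaks that passed it, of which 4.2% were higher and 6.11% lower. Of the 22 member peaks of the promoter class, 1 passed, against 3.33% of all promoter-class peaks, and of the 94 in other classes 7 passed, against 10.8%. At an unadjusted p under 0.05 there were 20 of 116, against 21.3% of all peaks. The median log2 fold change was 0.03 over the members and -0.01 over all tested peaks. The 8 peaks were 2 named after Xpa, 2 after Rpa1 and 1 each after Rfc1, Pold4, Msh6 and Msh5.

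The calls at Rfc1, Pold4 and the farther of the 2 Xpa peaks held in all 33 alternatives run, and the count of 8 was 3 without WT F3, 4 without WT F2 and 5 without Q140 M2, WT M1 or WT M3. Without Q140 F2 and Q140_Msh3KO M1 together it was 5, with 2 higher and 3 lower. Peaks named after 10 of 10 striatal projection neuron marker genes summed to 2248 to 2930 CPM in Q140 (median 2490) and 2587 to 3362 in WT (median 2803). These ranges overlapped. Of their 331 tested peaks 6 were higher and 40 lower, where 4.2% of all tested peaks were higher and 6.11% lower. The part of this difference in the member results was not tested. Peaks of 8 of 8 astrocyte marker genes summed to 589 to 673 CPM in Q140 and 648 to 775 in WT, and Aqp4, Gfap, Slc1a3, Gja1 and Sox9 had no promoter-class peak. The other 3 had one, with 10.9 CPM at Slc4a4, 6.90 at Fgfr3 and 2.88 at Aldh1l1 over all libraries, and the part of astrocytes in the member results was not tested. In bulk nuclei, fewer nuclei with an open region and less opening per nucleus cannot be told apart.

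**Figure D2:**
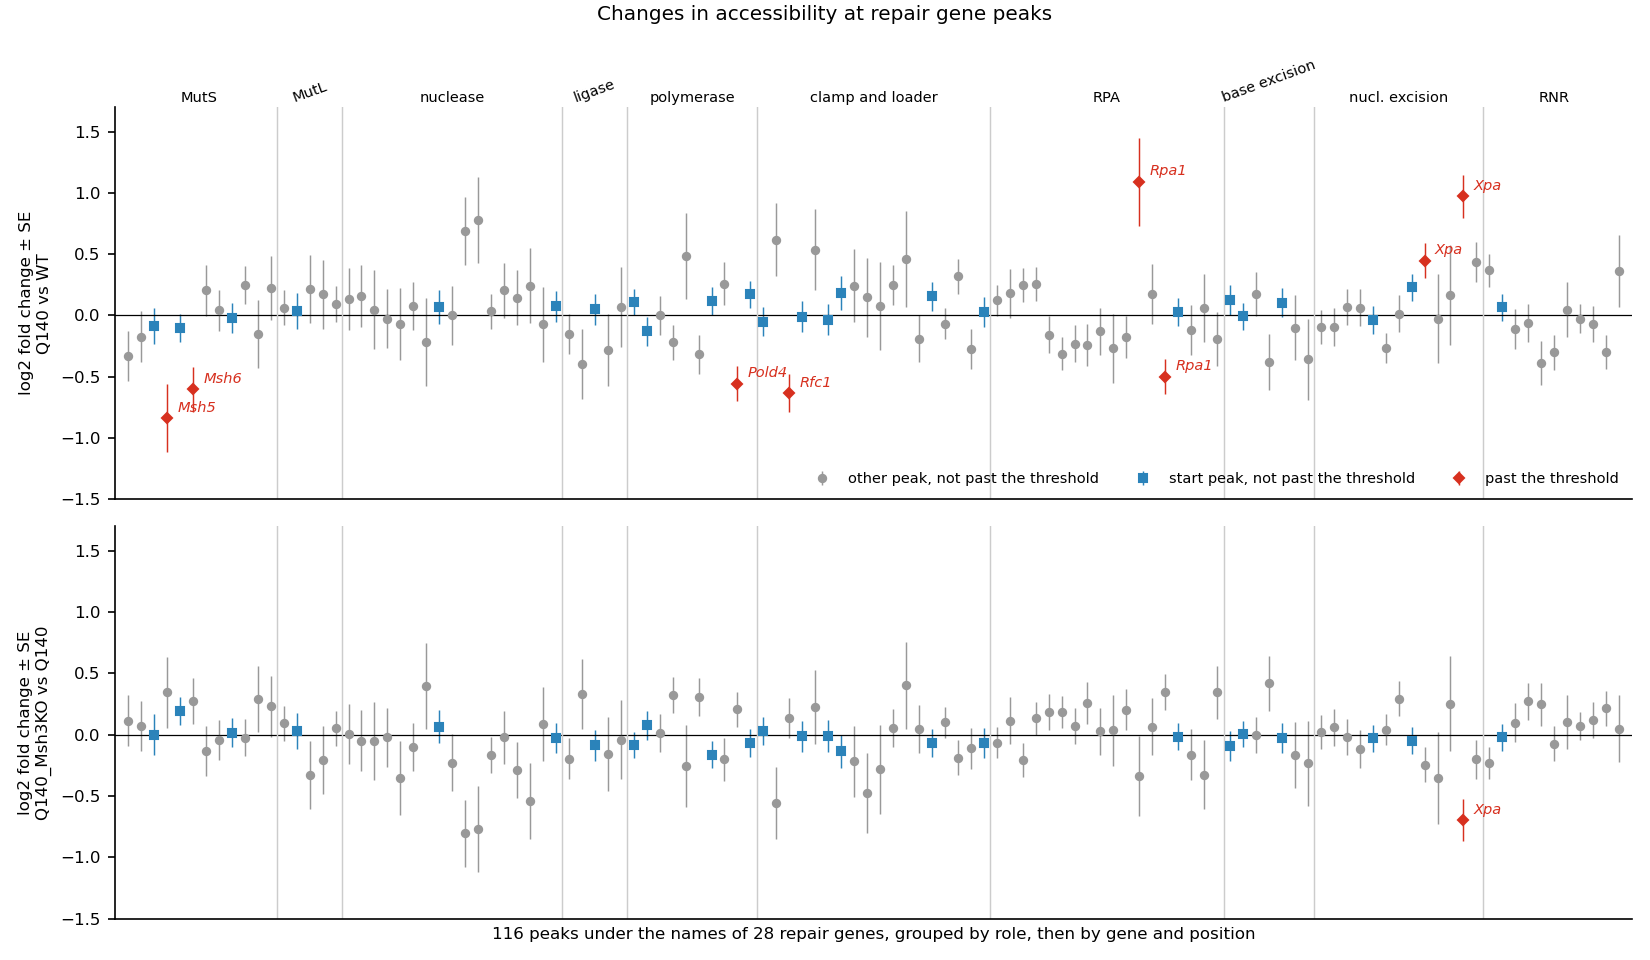
Log2 fold change ± SE of each of the 116 member peaks in Q140 against WT (upper panel) and in Q140_Msh3KO against Q140 (lower panel), grouped by role. Red diamonds passed an adjusted p of 0.05, which 8 peaks did in the upper panel and 1 in the lower, and the start peaks (blue squares) stay within 0.25 of 0 in both.

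The MutS homologues here are Msh6, of a complex that recognises mismatches, and Msh4 and Msh5, which act in meiosis. Counts per role, here and below, rest on few peaks and stand beside the 10.3% of all tested peaks that passed. Differences between roles were not tested. Of the 12 peaks of the MutS homologues, 2 fell in Q140 against WT. One is an intergenic peak 56.8 kb before the start of Msh6, the subunit that directs recognition of single mismatches (chr17:87918004-87918558). It held 2.63 to 4.81 CPM in Q140_Msh3KO (median 3.68), 2.60 to 3.30 in Q140 (median 3.12), 3.33 to 6.20 in Msh3KO (median 4.92) and 2.47 to 5.55 in WT (median 4.80). The 6 Q140 libraries lay below 5 of the 6 WT libraries, while WT M2, at 2.47 CPM, was the lowest of all 24. The log2 fold change was -0.60 ± 0.18 (SE, adjusted p = 0.0246), and its call was lost without any 1 of 7 libraries. The start peak of Msh6 itself had 27.9 ± 3.13 CPM in Q140 and 28.2 ± 4.36 in WT (SD, n = 6 each).

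The other is in an intron of Msh5, 1.61 kb after its start (chr17:35044882-35045140), and it is a peak of few reads, with a median of 11.5 counts per library. It held 0.68 to 1.43 CPM in Q140_Msh3KO (median 1.23), 0.43 to 1.45 in Q140 (median 0.91), 2.00 to 2.73 in Msh3KO (median 2.12) and 1.13 to 2.37 in WT (median 1.68). In Q140, 5 of 6 libraries lay below all WT libraries, and all 6 Q140_Msh3KO libraries lay below all 6 Msh3KO libraries. The log2 fold change in Q140 against WT was -0.83 ± 0.28 (SE, adjusted p = 0.0439), and the call was lost without any 1 of 19 of the 24 libraries, with an adjusted p of up to 0.135. In Q140_Msh3KO against Msh3KO it was -0.90 ± 0.26 (SE, adjusted p = 0.188).

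Among the few peaks of the MutL homologues, nucleases and ligases none passed the threshold in Q140 against WT, where 10.3% of all tested peaks did. The 5 peaks named after Mlh3, the subunit of the MutL endonuclease tied to repeat growth in mice, and Pms2, the main MutL endonuclease of mismatch repair, had log2 fold changes of 0.03 to 0.22. The 17 nuclease peaks, named after Fan1 and Exo1, the exonuclease that degrades the nicked strand, had -0.22 to 0.78, and 2 of them had an unadjusted p under 0.05. Both are named after Fan1 and both are thinly covered. The one in an intron of the neighbour Mtmr10 (chr7:64336437-64336701) held 0.67 to 1.67 CPM in Q140_Msh3KO (median 1.10), 1.39 to 2.73 in Q140 (median 1.90), 0.91 to 1.77 in Msh3KO (median 1.47) and 0.79 to 1.91 in WT (median 1.14). All Q140 libraries were above the WT median, 3 of them above all WT libraries, and 5 of 6 Q140_Msh3KO libraries were below all Q140 libraries. The log2 fold change was 0.69 ± 0.27 in Q140 against WT (SE, adjusted p = 0.110) and -0.80 ± 0.28 in Q140_Msh3KO against Q140 (adjusted p = 0.216).

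The other Fan1 peak, in the 3′ UTR of the gene (chr7:64346244-64346443), held 0.17 to 1.63 CPM in Q140_Msh3KO (median 1.23), 1.13 to 2.71 in Q140 (median 1.69), 0.83 to 1.88 in Msh3KO (median 1.17) and 0.20 to 1.82 in WT (median 0.94). Its fold changes were 0.78 ± 0.35 (SE, adjusted p = 0.175) in Q140 against WT and -0.77 ± 0.35 (adjusted p = 0.450) in Q140_Msh3KO against Q140. The start of Fan1 held 9.33 to 12.5 CPM in Q140 (median 11.2) and 9.48 to 11.1 in WT (median 10.5), with a log2 fold change of 0.07 ± 0.12. The 5 ligase peaks, named after Lig1 and Lig3, a ligase of base excision repair, had -0.40 to 0.07.

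Of the 10 peaks of the polymerase subunits, 1 fell, just before the start of Pold4, the smallest subunit of polymerase delta. It is the called peak of the promoter class (chr19:4230744-4231231, 0.91 kb before the start). It held 5.31 to 6.93 CPM in Q140_Msh3KO (median 5.98), 4.17 to 7.06 in Q140 (median 4.99), 5.31 to 8.20 in Msh3KO (median 6.79) and 6.69 to 10.3 in WT (median 7.40). In Q140, 5 of 6 libraries lay below all WT libraries, and the log2 fold change was -0.56 ± 0.14 (SE, adjusted p = 0.00595). The peak over the start of the same gene did not fall, with 20.9 ± 1.96 CPM in Q140 and 18.5 ± 2.08 in WT (SD, n = 6 each) and a log2 fold change of 0.17 ± 0.11 (SE, adjusted p = 0.418).

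Of the 18 peaks of the clamp and its loader, 1 fell. It is in an intron of Rfc1, the large subunit of the clamp loader, 41.2 kb after its start (chr5:65294199-65294688). It held 2.70 to 5.56 CPM in Q140_Msh3KO (median 4.42), 2.52 to 4.96 in Q140 (median 3.79), 4.43 to 8.20 in Msh3KO (median 5.96) and 5.07 to 6.32 in WT (median 6.06). All 6 Q140 libraries lay below all 6 WT libraries, and so did 5 of 6 Q140_Msh3KO libraries. The log2 fold change was -0.63 ± 0.16 in Q140 against WT (SE, adjusted p = 0.00522). In Q140_Msh3KO it was -0.58 ± 0.16 against Msh3KO (adjusted p = 0.138) and -0.49 ± 0.16 against WT (adjusted p = 0.168). The start of Rfc1 held 18.7 ± 2.60 CPM in Q140 and 18.8 ± 3.22 in WT.

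RPA coats single-stranded DNA in repair and replication. Of the 18 peaks of its subunits, 1 rose and 1 fell, both in introns of Rpa1, the large subunit. The lower one, 11.1 kb after the start (chr11:75336994-75337493), held 5.14 to 7.82 CPM in Q140_Msh3KO (median 6.16), 3.87 to 5.92 in Q140 (median 4.86), 5.58 to 7.38 in Msh3KO (median 6.17) and 4.87 to 8.44 in WT (median 6.92). The Q140 and WT ranges overlapped, with 3 of 6 Q140 libraries below all WT libraries, and the log2 fold change was -0.50 ± 0.15 (SE, adjusted p = 0.0194). The call was lost without Q140 F1, Q140 M3, WT F2 or WT F3, with an adjusted p of up to 0.0973.

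The higher one, 29.5 kb after the start (chr11:75318741-75318940), is among the least covered member peaks, with a median of 8 counts per library. It held 0.36 to 1.74 CPM in Q140_Msh3KO (median 1.27), 0.96 to 1.94 in Q140 (median 1.48), 0.43 to 1.11 in Msh3KO (median 0.73) and 0.23 to 1.03 in WT (median 0.71). In Q140, 5 of 6 libraries lay above all WT libraries, and the log2 fold change was 1.09 ± 0.36 (SE, adjusted p = 0.0417). The call was lost without any 1 of 8 libraries, with an adjusted p of up to 0.123. Another Rpa1 peak, intergenic and 55.9 kb past the start (chr11:75292325-75292717), held 4.604 to 6.87 CPM in Q140 (median 5.90) and 6.23 to 8.55 in WT (median 7.06), with a log2 fold change of -0.31 ± 0.13 (SE, adjusted p = 0.140).

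No peak of base excision repair genes passed the threshold in Q140 against WT, where 10.3% of all tested peaks did. The 7 peaks, named after Ogg1, Neil1, a glycosylase for oxidised pyrimidines, and Polb, the polymerase that fills the resulting gap, had log2 fold changes of -0.38 to 0.18, with 0 at an unadjusted p under 0.05 in edgeR's test.

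Nucleotide excision repair removes bulky lesions, and the member peak of smallest p in Q140 against WT lay near Xpa. Of the 13 peaks of Xpa and Ercc1, 2 rose in Q140 against WT, both intergenic and both before the start of Xpa. The farther one lies 31.03 kb before the start (chr4:46227070-46227620), with Xpa the nearest gene on one side and Gm12447, 76.5 kb away, on the other. It held 2.43 to 3.53 CPM in Q140_Msh3KO (median 2.87), 3.45 to 6.02 in Q140 (median 4.88), 1.90 to 3.76 in Msh3KO (median 2.63) and 1.78 to 2.88 in WT (median 2.56). All 6 Q140 libraries lay above all 6 WT libraries, and 5 of 6 Q140_Msh3KO libraries lay below all Q140 libraries, the exception being Q140_Msh3KO M1 at 3.53 CPM. The log2 fold change in Q140 against WT was 0.97 ± 0.18 (SE, adjusted p = 0.000138). Within the libraries labelled female it was 0.94 ± 0.25 (adjusted p = 0.0281), and without Q140 F2, whose share of counts on X goes against its label, it was 0.88 ± 0.28 (adjusted p = 0.111). Within males it was 1.00 ± 0.26 (adjusted p = 0.0246).

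The same Xpa peak is the member peak that also passed the threshold in Q140_Msh3KO against Q140, which uses the same Q140 libraries. Its log2 fold change there was -0.70 ± 0.17 (SE, adjusted p = 0.0410). In Q140_Msh3KO it was 0.17 ± 0.19 against Msh3KO (adjusted p = 0.946) and 0.28 ± 0.19 against WT (adjusted p = 0.7098). In Msh3KO against WT it was 0.11 ± 0.20. The test of whether the Q140 effect itself differed without Msh3 gave -0.80 ± 0.26 and did not pass (adjusted p = 0.341). The call against Q140 was lost without any 1 of Q140_Msh3KO F1, F2, M1, M2 or M3 or Q140 F2, F3, M2 or M3, with an adjusted p of up to 0.147. Without Q140 F2 and Q140_Msh3KO M1 together it was -0.74 (adjusted p = 0.112).

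The nearer Xpa peak lies 6.32 kb before the start (chr4:46202188-46203069) and held 5.23 to 7.99 CPM in Q140_Msh3KO (median 6.80), 5.74 to 10.3 in Q140 (median 7.56), 4.76 to 6.64 in Msh3KO (median 5.68) and 4.84 to 6.81 in WT (median 5.74). In Q140, 5 of 6 libraries lay above all WT libraries, and the log2 fold change was 0.45 ± 0.14 (SE, adjusted p = 0.0369). Without Q140 F2 it was 0.34 (adjusted p = 0.176), and the call was also lost without any 1 of 6 other libraries. Another intergenic peak, 45.6 kb before the start (chr4:46241596-46242249), held 5.46 to 9.92 CPM in Q140 (median 7.84) and 4.30 to 7.41 in WT (median 5.93), with a log2 fold change of 0.44 ± 0.16 (SE, adjusted p = 0.0824). The remaining Xpa peaks include one in an intron, 19.8 kb after the start, with 4.44 ± 0.64 CPM in Q140 and 4.36 ± 0.68 in WT, and 2 of about 1 CPM at 23.0 and 23.2 kb before it. No peak of Ercc1 passed the threshold.

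**Figure D3:**
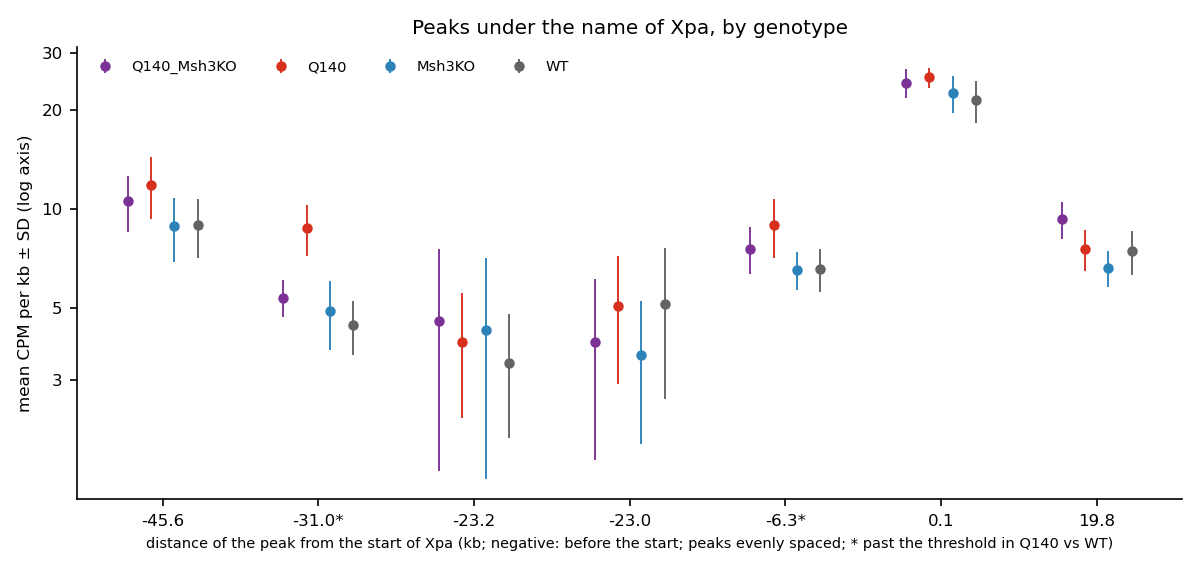
Mean accessibility ± SD (n = 6) of the 7 peaks named after Xpa in Q140_Msh3KO, Q140, Msh3KO and WT, in CPM per kb of peak on a log axis, ordered by distance from the start of the gene. The peak 31.03 kb before the start is higher in Q140 than in the other 3 groups. The start peak had a log2 fold change of 0.23 ± 0.11 (SE) in Q140 against WT, which did not pass the threshold.

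Summed over its 7 peaks, Xpa held 49.1 ± 2.37 CPM in Q140_Msh3KO, 52.8 ± 2.49 in Q140, 42.7 ± 1.63 in Msh3KO and 42.4 ± 3.22 in WT (SD, n = 6 each). The sum takes in the start peak, which was not called and had 25.7 ± 1.84 CPM in Q140 and 21.9 ± 3.25 in WT (SD). The log2 fold change of the sum was 0.31 ± 0.06 in Q140 against WT (SE, adjusted p = 0.000233) and -0.10 ± 0.05 in Q140_Msh3KO against Q140 (adjusted p = 0.525). It was 0.21 ± 0.06 in Q140_Msh3KO against WT (adjusted p = 0.0684). Xpa was the 1 of 28 genes whose sum passed the threshold in Q140 against WT, where 12.9% of all 20851 genes did, and the sums of the 28 ran from -0.21 at Lig1 to 0.31 at Xpa. Limited to promoter-class peaks, which 21 of the genes had, 0 passed in edgeR's test, where 4.42% of all 9365 genes did, and 2 had an unadjusted p under 0.05. No member gene passed on its sum in the other comparisons in edgeR's test, where the share of all genes was 0.643% in Q140_Msh3KO against Q140, 0.0576% in Q140_Msh3KO against Msh3KO, 0.82% in Q140_Msh3KO against WT, 0.0192% in Msh3KO against WT and 0.0719% for the interaction.

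Rrm2b supplies deoxyribonucleotides outside S phase. None of its 11 peaks passed the threshold in Q140 against WT, where 10.3% of all tested peaks did. An unadjusted p under 0.05 in edgeR's test was found at 4 of them, and at 21.3% of all tested peaks. The one of smallest p is intergenic, 54.7 kb from the start (chr15:37905876-37906474), and held 5.83 to 9.90 CPM in Q140_Msh3KO (median 6.98), 7.08 to 9.26 in Q140 (median 8.52), 5.54 to 8.20 in Msh3KO (median 6.87) and 5.33 to 7.33 in WT (median 6.42). In Q140, 5 of 6 libraries lay above all WT libraries, and the log2 fold change was 0.37 ± 0.13 (SE, adjusted p = 0.0709), just outside the threshold.

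**Figure D4:**
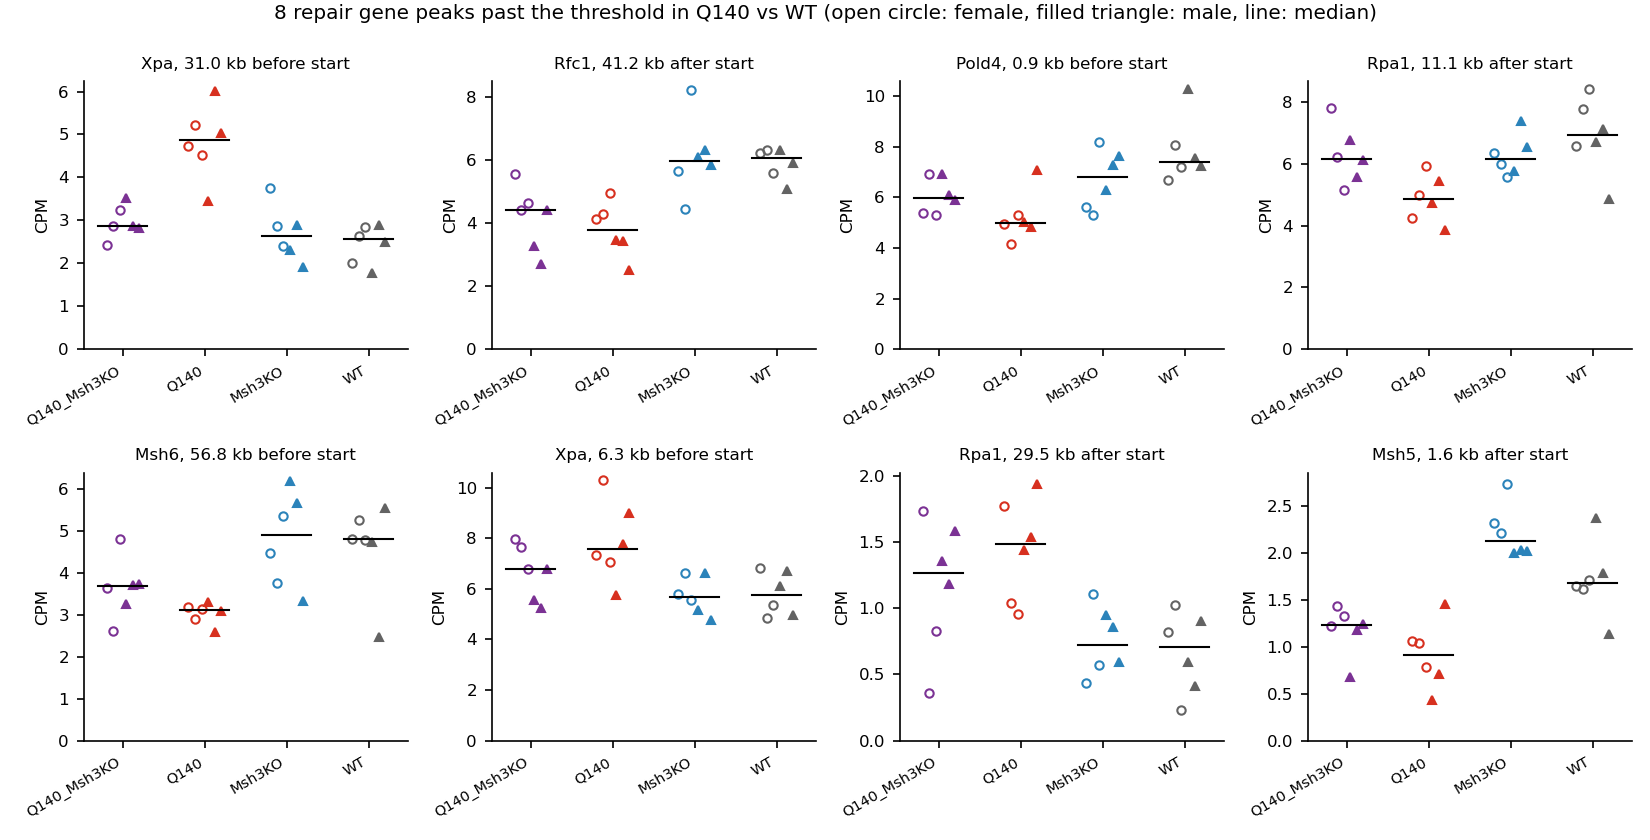
Accessibility in CPM of the 8 member peaks that passed the threshold in Q140 against WT, 1 point per animal (open circles female, filled triangles male), with the median as a line, in Q140_Msh3KO, Q140, Msh3KO and WT. The peaks were chosen by this call, which 10.3% of all peaks passed. At the Xpa peak 31.03 kb before the start and at the Rfc1 peak, all 6 Q140 animals lie on one side of all 6 WT animals. The share of all called peaks that separate in this way was not computed, so the separation does not set the members apart.

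In each comparison with an Msh3 knockout group at most 1 member peak passed, and few of all tested peaks did. In Q140_Msh3KO against Q140, 1 of 116 peaks passed, the Xpa peak above, where 0.529% of all peaks did, and 6 had an unadjusted p under 0.05, where 9.5% of all peaks did. In Q140_Msh3KO against Msh3KO, 0 of 116 passed (0.116% of all peaks), and 5 had an unadjusted p under 0.05 (7.68%). In Q140_Msh3KO against WT, 0 passed (0.525%), and 9 had an unadjusted p under 0.05 (9.82%). In Msh3KO against WT, 0 passed (0.013%), and 3 had an unadjusted p under 0.05 (3.34%). For the interaction, 0 passed (0.0226%), and 4 had an unadjusted p under 0.05 (7.32%). These counts are from edgeR's quasi-likelihood test, and DESeq2 and limma-voom also gave 0 wherever it gave 0. Leaving out Msh3KO F2 gave 1 call in Q140_Msh3KO against Msh3KO.

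The comparisons share groups, so the values of the 8 peaks are set side by side without a test of their overlap. The peaks were chosen by their value with Msh3, and such a choice favours large values there. A smaller value without Msh3 can follow from the choice alone. At the lower peaks of Rfc1 and Msh5 the fold changes of the expanded allele were close with and without Msh3, at -0.58 ± 0.16 without and -0.63 ± 0.16 with Msh3 for Rfc1, and -0.90 ± 0.26 without and -0.83 ± 0.28 with Msh3 for Msh5. At Msh6 they were -0.41 ± 0.18 without and -0.60 ± 0.18 with Msh3. At Pold4 they were -0.16 ± 0.14 without and -0.56 ± 0.14 with Msh3, and at the lower Rpa1 peak -0.02 ± 0.15 and -0.50 ± 0.15. At the nearer Xpa peak they were 0.22 ± 0.15 without and 0.45 ± 0.14 with Msh3, and at the higher Rpa1 peak 0.64 ± 0.37 and 1.09 ± 0.36. None of these differences passed the interaction test. The Q140 effect did not differ detectably between males and females at any member peak in edgeR's test, where 0 of 116 passed and 0.0% of all peaks did. At an unadjusted p under 0.05 there were 7 member peaks of 116, against 3.29% of all peaks. Without Q140 F2 there were again 0 calls (0.0% of all peaks) and 7 member peaks with an unadjusted p under 0.05 (3.46% of all peaks).

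**Figure D5:**
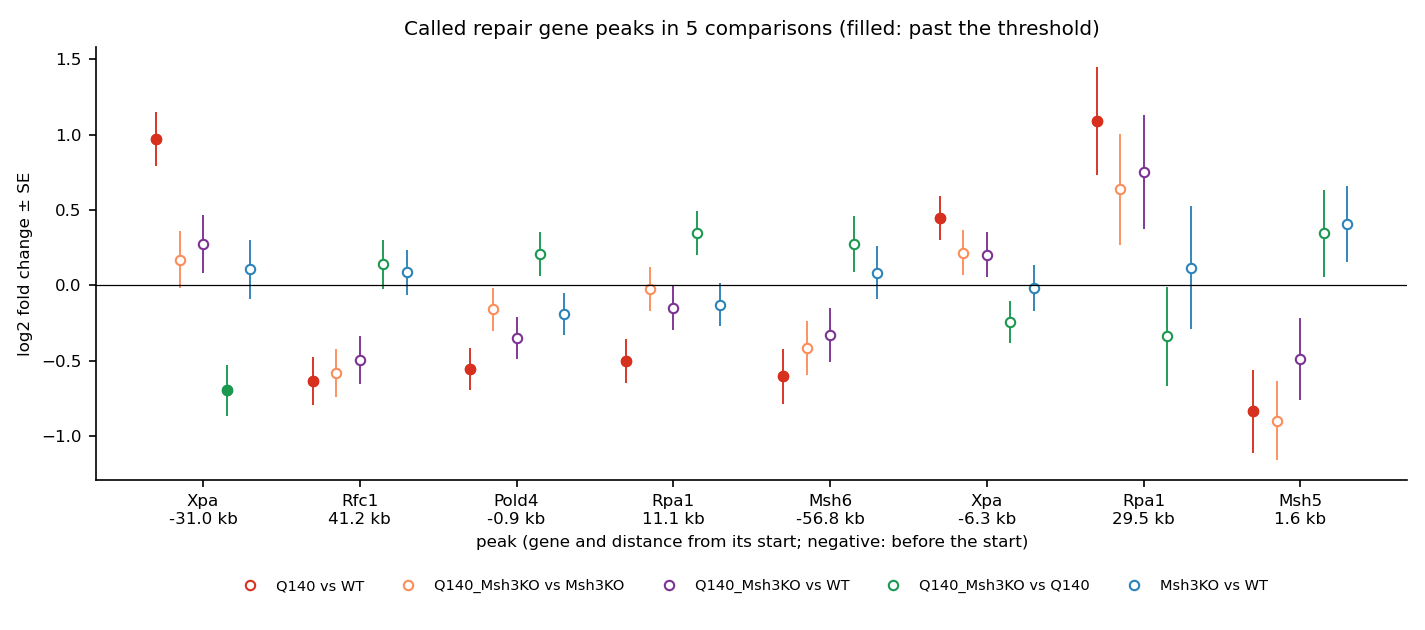
Log2 fold change ± SE of the 8 called member peaks in Q140 against WT, Q140_Msh3KO against Msh3KO, Q140_Msh3KO against WT, Q140_Msh3KO against Q140 and Msh3KO against WT, with filled points past the threshold. The blue points of Msh3KO against WT lie between -0.19 at Pold4 and 0.41 at Msh5 and none is filled, and the single filled green point is the Xpa peak 31.03 kb before the start.

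Other DNA repair genes were read in the same way. Of 430 peaks under the names of other repair genes, 46 (10.7%) passed in Q140 against WT, 18 higher and 28 lower, near the 10.3% of all tested peaks that did. The lists gave 4 of 53 peaks for other mismatch repair and repeat stability factors, 14 of 126 for other polymerases, 8 of 70 for other base excision genes, 13 of 74 for other nucleotide excision and transcription-coupled repair genes (2 higher, 11 lower), 3 of 49 for crosslink repair, 2 of 34 for end joining and 2 of 24 for ribonucleotide supply. The peak of smallest p was in an intron of Ddx11, a DNA helicase (chr17:66133411-66134175), with 13.1 ± 2.75 CPM in Q140_Msh3KO, 6.05 ± 0.98 in Q140, 17.8 ± 2.16 in Msh3KO and 17.3 ± 3.22 in WT (SD, n = 6 each). It fell by 1.51 ± 0.14 on the log2 scale in Q140 against WT. It was 1.09 ± 0.15 higher in Q140_Msh3KO than in Q140 (adjusted p = 2.3e-05) and passed the interaction test (1.04 ± 0.20, adjusted p = 0.0368).

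An intron peak of Polk, a translesion polymerase (chr13:96514641-96515226), had 4.08 ± 0.77 CPM in Q140_Msh3KO, 5.42 ± 1.36 in Q140, 3.03 ± 0.80 in Msh3KO and 1.86 ± 0.60 in WT. It rose by 1.51 ± 0.21 in Q140 against WT and by 1.11 ± 0.22 in Q140_Msh3KO against WT (adjusted p = 0.00786). This peak lies on the chromosome of Msh3, chromosome 13. In the second comparison, DNA inherited together with the knockout allele cannot be told apart from the 2 alleles, and its part was not tested. An intergenic peak 123817 bases from the start of Fancb, a subunit of the Fanconi core complex (chrX:165104224-165104595), had 3.02 ± 0.59 CPM in Q140_Msh3KO, 1.65 ± 0.24 in Q140, 3.20 ± 0.64 in Msh3KO and 3.65 ± 1.03 in WT. It fell by 1.12 ± 0.20 in Q140 against WT and was 0.82 ± 0.20 higher in Q140_Msh3KO than in Q140 (adjusted p = 0.0491). The peak is on X, and the share of counts on X in Q140 F2 goes against its label. Its values without that library are not given here. In Q140_Msh3KO against Q140, 2 of the 430 peaks (0.465%) passed, those of Ddx11 and Fancb, near the 0.529% of all tested peaks that did.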

How the data were processed

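The authors deposited raw counts per peak for 24 libraries, and 0 further columns hold values of samples. The submitters' processing notes list BWA, SAMtools, Picard, MACS2, featureCounts and build GRCm38. Versions, settings, read shifting for the transposase and the handling of duplicates were not given in the sources used here. A peak's class and gene, the one with the nearest start, are as deposited, and regulation of that gene is not implied.

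Counts were tested with edgeR 4.0.16 (R 4.3.3). TMM scaling, filterByExpr with a count minimum of 10 (146155 peaks kept) and a robust quasi-likelihood fit were used, with terms for genotype and sex over the 24 libraries. Benjamini-Hochberg adjustment ran over all tested peaks, at a threshold of 0.05. The interaction is (Q140_Msh3KO - Msh3KO) - (Q140 - WT). Each SE is the size of the fold change divided by the root of F. CPM uses the TMM library size. Counts summed per gene name were fitted likewise. Libraries of the same genotype differed beyond sampling noise, with a chi-square of 1.33 to 8.80 per peak over 60 pairs.

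The members and lists were chosen with earlier results of these data known. Named were each member's start peak, every member peak past the threshold, the 5 of next smallest p in Q140 against WT, the 3 of highest CPM and, in other repair lists, up to 3 called peaks each, of which a few are described. Alternatives were DESeq2 1.42.0, limma-voom (limma 3.58.1), RLE and total-count scaling, no count filter, no sex term, a replicate block, only the groups compared, and leaving out each library. Effects by sex came from a fit with a term for each genotype and sex, also run without Q140 F2, chosen after seeing the data.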

Additional observations from a re-analysis of the deposited data

Results flagged for a closer look

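In 44 named peaks, each with 4 groups of 6 libraries, 7 of the 176 groups held 1 library far from the other 5, and chance alone gives about 1 in 20 such groups. The intron peak of Msh5 was low in Q140_Msh3KO M1, at 0.678 CPM, where the rest of the group had 1.18 to 1.43. The distal Msh6 peak was low in WT M2, at 2.47 CPM, where the others had 4.74 to 5.55. Of the start peaks, Exo1 was low in Msh3KO F2, at 6.20 CPM (others 9.76 to 11.3), and so was Rfc5, at 10.6 CPM (others 18.5 to 20.7). Msh3KO F2 is the library with the fewest counts. The start peak of Fen1 was low in Q140_Msh3KO M2, at 10.8 CPM (others 14.4 to 16.4). The start peak of Pold3 was high in Q140 F2, at 18.1 CPM (others 15.4 to 16.4), and that of Rfc1 was high in Q140_Msh3KO F2, at 21.7 CPM (others 17.4 to 18.4).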

How the results depend on the processing

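In Q140 against WT, the 8 member peaks called became 5 with only the groups compared (1 higher, 4 lower) and 5 without Q140 F2 and Q140_Msh3KO M1 together, an alternative chosen after seeing the data, and ran from 3 to 9 when 1 library was left out. They were 7 with DESeq2, 8 with limma-voom, RLE scaling or no sex term, and 6 with no count filter. Total-count scaling also gave 8, of which 7 were the same peaks, with a Rrm2b peak (chr15:37905876-37906474, log2 fold change 0.41, adjusted p = 0.0361) gained and Msh5 lost. The replicate block gave 7, losing Msh5. Replicate numbers were not taken as pairs of animals. Same-numbered deviations correlated at -0.326 to 0.467 over the 5 comparisons, and over 0.1 in 1 to 3 of the 6 pairs of each. Differently numbered libraries were not correlated, so these values cannot show whether animals were paired. In Q140_Msh3KO against Q140 the 1 call became 0 without Q140 F2 and Q140_Msh3KO M1 together and ran from 0 to 1 with 1 library left out, as did the 0 calls in Q140_Msh3KO against Msh3KO. The calls in the other comparisons stayed at 0 throughout. The 1 gene called on its sum became 0 with promoter peaks only. The cause of these changes was not tested, beyond the smaller number of libraries or peaks that each leaves. Rfc1, Pold4 and the Xpa peak 31.03 kb before the start were called in all 33 alternatives. Msh6 was lost without Q140 F3 or M2 or WT F1, F2, F3, M1 or M3, and the higher Rpa1 peak without Q140 F1, F2, M2 or M3 or WT F3, M1, M2 or M3 or with no count filter. The nearer Xpa peak was lost without Q140_Msh3KO F2, Q140 F2, M2 or M3, or WT F2, F3 or M3, with no count filter or with only the groups compared. The Msh5 call was also lost under DESeq2 (adjusted p = 0.0681) and total-count scaling (adjusted p = 0.0616), and it held with 1 library left out for Q140_Msh3KO F2 and M1, Q140 F2 and M3 and WT M3. No fold change reversed. Of all called peaks, 40.8% were higher with TMM scaling, 43.1% with RLE and 48.4% with total counts, and the members' split of 3 higher and 5 lower was read beside that. At 8 to 12 counts per library, as in the higher Rpa1 and Msh5 peaks, counting error limits what can be seen.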
